A study of Mus musculus with 12 samples.

Results

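The immunoglobulin heavy and light chain genes were described in 12 RNA-seq libraries from 8 mice, as measured in isolated brain astrocytes and in the brain cells left after astrocyte isolation. Members were the genes whose symbol names a heavy, kappa or lambda variable segment, a heavy or kappa joining segment, a constant region or the J chain, with a summed count of at least 10 over the 12 libraries. Of 41388 genes in the deposited tables, 233 had such a symbol and 155 reached 10 counts. They comprised 57 of 108 heavy V segments, 76 of 103 kappa V segments, all 3 lambda V segments, 9 joining segments, 7 heavy constant genes (Igha, Ighm, Ighe, Ighg1, Ighg2b, Ighg2c and Ighg3), the kappa constant gene Igkc, the lambda constant gene Iglc2 and Jchain. The other 78 genes fell below 10 counts, and 28 of them had no count at all. Just inside the threshold stood Ighv11-1 with 10 and Ighe with 11 counts in all. Just outside stood Ighv5-9, Igkv4-80 and Igkv4-90 with 9 counts each and Ighv15-2 and Igkv1-131 with 8 each. Ighd, Iglc1, Iglc3 and Iglc4 were not analysed here.

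An antibody is built from paired heavy and light chains, and each B lymphocyte joins 1 heavy V segment and 1 light V segment out of many to short joining segments and a constant region. The constant region of the heavy chain sets the isotype, which starts as IgM and can be switched to IgG, IgE or IgA. Plasma cells, the end stage of that lineage, fill most of their messenger RNA with the 1 heavy and 1 light chain they secrete, and the J chain links IgM and IgA units into polymers. Naive B cells, plasma cells and IgA-secreting cells are known in the dura mater of the mouse, and B cell precursors in the marrow of the overlying skull.

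The mice carried floxed Bmal1 (Arntl), which encodes a core clock transcription factor, on C57BL/6. The aKO mice also carried Aldh1l1-CreERT2, a tamoxifen-dependent recombinase under an astrocyte promoter, and the WT mice lacked Cre. Both genotypes were gavaged with tamoxifen, 2 mg a day for 5 days, at the age of 2 months, and brains were taken at 7 months. Collagenase-digested brains were freed of debris and passed over magnetic beads against the astrocyte antigen ACSA-2; the bound cells are called astrocytes here and all other cells flowthrough. Whether the brains were perfused or the meninges removed is not given in the sources used here. The groups were aKO astrocytes (5 libraries, animals 203, 205, 208, 221 and 222), WT astrocytes (3 libraries, animals 201, 202 and 265), aKO flowthrough (2 libraries, animals 203 and 205) and WT flowthrough (2 libraries, animals 201 and 202), so 4 animals gave both fractions. For WT astrocytes 202 the title gives wild type and another label field gives knockout; it was kept as WT, as its flowthrough is labelled. The flowthrough titles carry a letter b whose meaning is not given, and which cannot be told apart from the fraction.

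Astrocyte libraries held 21816637 to 62655238 counts and flowthrough libraries 33019572 to 53868165. Of 10 astrocyte markers 9 were higher in astrocytes and all 10 microglial markers were lower. The summed level of 10 choroid plexus and meningeal genes was 12163 to 171116 CPM (counts per 1000000 counts of the library) in astrocytes and 82517 to 321439 CPM in flowthrough. Nearly all of that sum was Ttr, with a mean of 71753 CPM in astrocytes and 195281 CPM in flowthrough. Between the fractions 5 of the 10 genes had an estimate higher in astrocytes and 5 a lower one. Arntl was at 5.05 to 25.01 CPM in aKO astrocytes and at 2.13 to 6.80 CPM in WT astrocytes; counts of the whole gene do not show whether the deleted stretch was lost, so they do not check the labels. Only aKO astrocytes 221 (2044 counts) and 222 (972 counts) held more than 46 counts of Xist, the RNA that silences an X chromosome in female cells.

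The heavy locus lies on chromosome 12 from 113258768 to 116000461 on the minus strand (68 members), the kappa locus on chromosome 6 from 67555636 to 70726757 on both strands (82 members), the lambda locus on chromosome 16 from 19085017 to 19260844 on the minus strand (4 members) and Jchain on chromosome 5 from 88520512 to 88527891 on the minus strand, all in GRCm38. The joining segments are shown because they are the shortest members and differ by few bases, which bears on how reads are assigned to them. Their sequences are those of GENCODE vM21, 5′ to 3′, on the strand of the segment. Capitals mark TTCGG in the kappa segments, within the Phe-Gly codons that open the conserved Phe-Gly-X-Gly turn, and TGGGG in the heavy segments, within the Trp-Gly codons of Trp-Gly-X-Gly.

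Igkj1 (chr6:70722562-70722599, plus strand): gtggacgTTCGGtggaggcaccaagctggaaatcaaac
Igkj2 (chr6:70722916-70722954, plus strand): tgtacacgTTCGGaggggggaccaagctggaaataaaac
Igkj3 (chr6:70723223-70723260, plus strand): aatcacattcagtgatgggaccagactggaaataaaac
Igkj4 (chr6:70723548-70723585, plus strand): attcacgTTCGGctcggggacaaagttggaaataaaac
Igkj5 (chr6:70723886-70723923, plus strand): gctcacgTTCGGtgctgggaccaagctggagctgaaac
Ighj1 (chr12:113429781-113429833, minus strand): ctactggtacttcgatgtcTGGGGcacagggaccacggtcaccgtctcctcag
Ighj2 (chr12:113429468-113429515, minus strand): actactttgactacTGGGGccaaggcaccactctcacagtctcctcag
Ighj3 (chr12:113429085-113429132, minus strand): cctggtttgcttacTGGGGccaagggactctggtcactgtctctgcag
Ighj4 (chr12:113428514-113428567, minus strand): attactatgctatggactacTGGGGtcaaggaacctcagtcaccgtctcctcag

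All 4 heavy joining segments and 4 of 5 kappa joining segments held their motif; Igkj3 did not. Searched on both strands in the first 38 bases of all 141715 annotated transcripts of at least that length, TTCGG was found in 3.40%. Igkj3 was the lowest kappa joining segment in each flowthrough library, with 0.912% to 6.60% of the kappa joining reads per kilobase, against a mean of 22.9% ± 7.41 for Igkj1, 25.7% ± 11.5 for Igkj2, 26.1% ± 13.4 for Igkj4 and 22.0% ± 6.74 for Igkj5 (SD, n = 4). The flowthrough libraries held 246 to 794 counts over the 5 kappa joining segments. Among the heavy joining segments, Ighj1 averaged 40.4% ± 7.68 and Ighj4 36.8% ± 14.4, while Ighj3 averaged 17.1% ± 6.62 and Ighj2 5.69% ± 4.24 (SD, n = 4).

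A choice of the V segments that led an astrocyte or flowthrough library is shown over the last 90 bases, the part that reaches the junction with a joining segment. Capitals mark TATTNNTGN, the codons around the conserved cysteine, and the bases behind it open the third complementarity-determining region, where antibodies differ most.

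Ighv4-1 (chr12:113948282-113948371, minus strand): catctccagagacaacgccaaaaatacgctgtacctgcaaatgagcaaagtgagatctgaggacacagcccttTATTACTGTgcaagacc
Ighv3-6 (chr12:114288157-114288246, minus strand): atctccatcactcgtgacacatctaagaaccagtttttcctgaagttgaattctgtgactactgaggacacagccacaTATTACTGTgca
Ighv10-1 (chr12:114479005-114479094, minus strand): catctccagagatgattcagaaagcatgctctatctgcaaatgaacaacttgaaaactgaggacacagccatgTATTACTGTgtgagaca
Ighv1-80 (chr12:115912344-115912433, minus strand): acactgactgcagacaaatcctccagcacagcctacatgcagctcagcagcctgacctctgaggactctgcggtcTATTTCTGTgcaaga
Ighv9-3 (chr12:114140692-114140781, minus strand): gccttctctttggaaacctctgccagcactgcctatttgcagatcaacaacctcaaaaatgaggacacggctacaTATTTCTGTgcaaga
Igkv1-88 (chr6:68862265-68862354, minus strand): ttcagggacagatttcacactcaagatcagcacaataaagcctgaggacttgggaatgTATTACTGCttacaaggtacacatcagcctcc
Igkv8-30 (chr6:70117061-70117150, minus strand): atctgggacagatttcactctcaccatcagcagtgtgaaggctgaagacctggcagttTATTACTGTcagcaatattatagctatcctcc
Igkv1-110 (chr6:68271178-68271267, plus strand): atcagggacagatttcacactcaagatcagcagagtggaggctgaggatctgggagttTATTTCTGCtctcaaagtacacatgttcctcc
Igkv1-135 (chr6:67610419-67610508, plus strand): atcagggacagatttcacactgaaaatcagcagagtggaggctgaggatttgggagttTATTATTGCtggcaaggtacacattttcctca
Igkv6-15 (chr6:70406469-70406558, minus strand): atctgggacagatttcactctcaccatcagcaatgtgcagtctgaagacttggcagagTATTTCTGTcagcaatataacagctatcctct
Iglv1 (chr16:19085017-19085106, minus strand): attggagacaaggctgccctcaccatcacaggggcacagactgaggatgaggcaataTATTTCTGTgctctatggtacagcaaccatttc

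The motif stood in the last 90 bases of 119 of 136 V members (87.5%). It was found on either strand in the last 90 bases of 7.74% of all 139864 transcripts of that length. The lambda segments Iglv1 and Iglv2 are set side by side over their last 150 bases, with the 5 differing bases in capitals (96.7% identical), because Iglv1 had the largest summed RPKM of all V segments in flowthrough.

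Iglv1 (chr16:19085017-19085166, minus strand): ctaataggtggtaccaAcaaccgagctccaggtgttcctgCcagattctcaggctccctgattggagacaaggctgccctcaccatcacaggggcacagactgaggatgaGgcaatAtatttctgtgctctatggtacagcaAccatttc
Iglv2 (chr16:19260401-19260550, minus strand): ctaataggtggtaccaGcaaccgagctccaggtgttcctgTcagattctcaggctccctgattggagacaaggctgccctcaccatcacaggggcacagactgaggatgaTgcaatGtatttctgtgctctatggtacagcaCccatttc

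Counts of such relatives are uncertain, since the handling of reads that fit several genes is not given in the sources used here. Of all 50-base stretches of Iglv1, 22.2% also occur in another annotated gene, and for Igkv1-110 the share was 50.9%, nearly all with Igkv1-117. Over the 136 V members the median share was 23.0%, 23 members shared no stretch and 77 shared over 20%.

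Immunoglobulin transcripts were lower in astrocytes than in flowthrough. The 155 members summed to 57.5, 90.8, 261, 165 and 20.7 CPM in aKO astrocytes 203, 205, 208, 221 and 222 and to 141, 23.3 and 83.8 CPM in WT astrocytes 201, 202 and 265. Flowthrough held 1137 and 498 CPM in aKO 203 and 205 and 992 and 987 CPM in WT 201 and 202. The mean was 105 ± 81.1 CPM in astrocytes (SD, n = 8) and 903 ± 279 CPM in flowthrough (SD, n = 4), and no astrocyte library reached the lowest flowthrough library. Within a brain the astrocytes held less in 4 of 4 animals, with 5.48 times (aKO 205), 7.04 times (WT 201), 19.8 times (aKO 203) and 42.3 times (WT 202) as many CPM in the flowthrough. In bulk samples like these, fewer antibody-producing cells and less RNA per cell cannot be told apart.

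**Figure D1:**
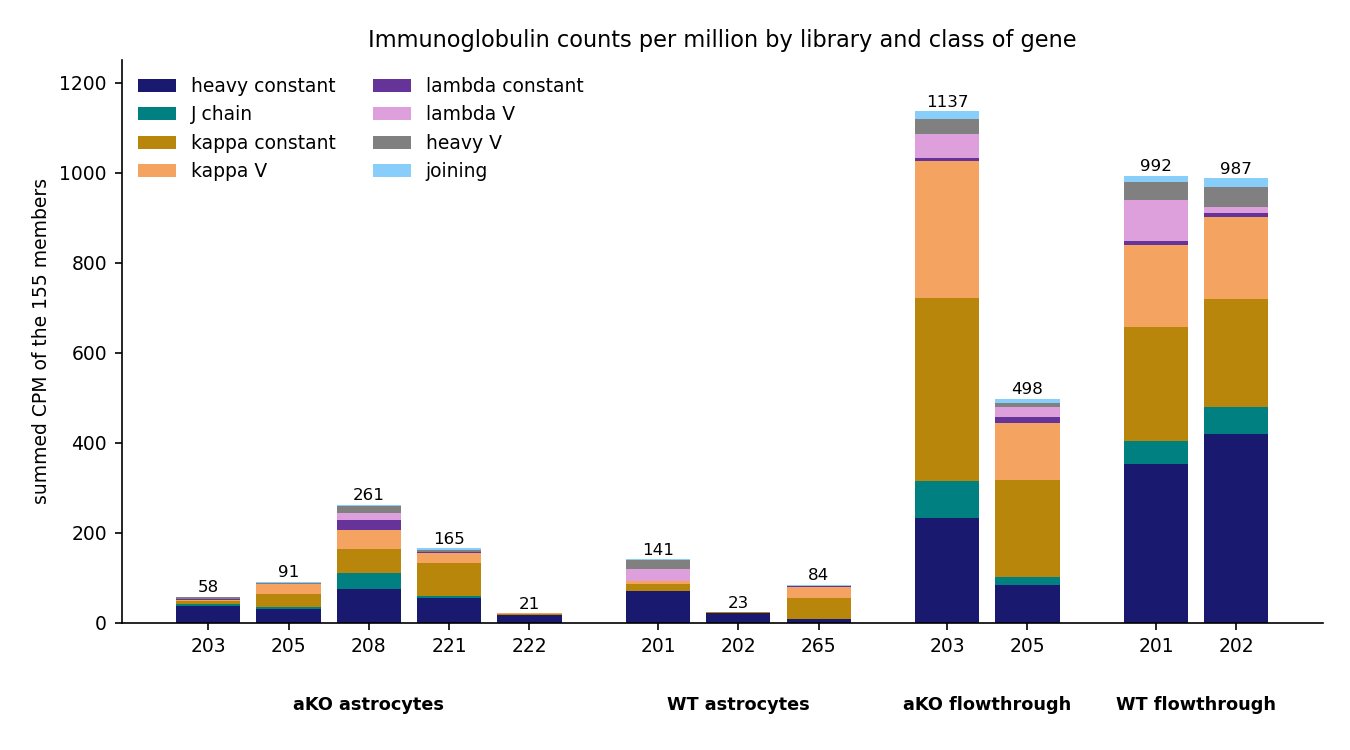
Stacked bars give the summed CPM of the 155 members in each library, coloured by class of gene, with the sum above each bar and the animal number below. The 8 astrocyte libraries sit between 20.7 and 261 CPM, below all 4 flowthrough libraries at 498 to 1137 CPM.

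Of the 155 members 87 passed the filter on low counts of the fit over all 12 libraries, and 60 of these were lower and 0 higher in astrocytes, with edgeR's quasi-likelihood test at a Benjamini-Hochberg adjusted p below 0.05 over 20637 genes; without adjustment 73 had a p below 0.05. Among all genes tested 8.52% were called lower and 8.52% higher. A member could pass the filter through its flowthrough counts alone, so the count describes the 87 and is no support for the direction. With no count filter 113 of all 155 members were called lower and 0 higher, where 6.48% of 32850 genes were called lower and 7.42% higher. In that fit Igkv8-30 moved only from -6.58 to -6.53 on the log2 scale, while its edgeR adjusted p fell from 0.0536 to 7.54e-38. The estimated error thus changed far more than the estimate, and members could reach 10 counts through flowthrough alone. This count is no support for the direction either. Without any filter or model, 38 of 155 members (24.5%) had every astrocyte library below every flowthrough library, against 970 of 25901 genes with a summed count of 10 or more (3.75%). No member was absent from flowthrough, and 48 of 155 had no count in any astrocyte library. A member could reach the summed count of 10 through flowthrough alone, and the share over all genes was not taken. These counts of absent members are thus no support for the direction.

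Per length, Ighm and Igha were the highest heavy constant genes in each flowthrough library. Ighm, the constant region of IgM, had 13.5, 15.8, 16.7, 53.0 and 16.0 CPM in aKO astrocytes 203, 205, 208, 221 and 222 and 24.8, 20.2 and 6.47 CPM in WT astrocytes 201, 202 and 265. Flowthrough held 95.4 and 37.0 CPM in aKO 203 and 205 and 203 and 306 CPM in WT 201 and 202. Ighm was counted in all 12 libraries, aKO astrocytes 221 stood above aKO flowthrough 205, and the fold change was -2.94 ± 0.44 on the log2 scale (SE; edgeR adjusted p = 0.000203, 8 against 4 libraries). That call was kept in all 21 alternatives run, among them a higher minimum summed count for members, which reuses the main fit and could not change it.

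Igha, the constant region of IgA, had 21.5, 14.3 and 43.2 CPM in aKO astrocytes 203, 205 and 208, 0 and 0.0870 CPM in aKO astrocytes 221 and 222, and 0.0319, 0 and 0.0402 CPM in WT astrocytes 201, 202 and 265. Flowthrough held 88.0 and 40.9 CPM in aKO 203 and 205 and 86.4 and 102 CPM in WT 201 and 202. The astrocyte libraries thus fell into 3 with 469 to 1504 Igha counts and 5 with 0 to 2, and aKO astrocytes 208 reached above aKO flowthrough 205. The log2 fold change was -7.15 ± 1.50 (edgeR adjusted p = 0.00766), and the call was lost without WT flowthrough 201 (adjusted p = 0.0578), with limma voom (0.0678) and with WT astrocytes 202 counted as aKO (0.0594).

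Jchain had 6.14, 2.97, 36.0, 5.64 and 0.0435 CPM in aKO astrocytes 203, 205, 208, 221 and 222 and 1.42, 0.267 and 0 CPM in WT astrocytes 201, 202 and 265, against 83.0 and 16.3 CPM in aKO flowthrough 203 and 205 and 51.0 and 60.1 CPM in WT flowthrough 201 and 202. It was highest among astrocytes in aKO 208, which also had the most Igha. Its log2 fold change was -4.65 ± 1.14 (edgeR adjusted p = 0.0168), and the call was lost without WT astrocytes 202 (0.0736), WT flowthrough 201 (0.101), WT flowthrough 202 (0.0522) or aKO flowthrough 203 (0.0731), or with WT astrocytes 202 counted as aKO (0.0735).

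The IgG genes were uneven between libraries. Ighg2b was at 0 to 0.287 CPM in 7 astrocyte libraries and at 44.2 CPM in WT astrocytes 201, against 27.2 and 4.94 CPM in aKO flowthrough 203 and 205 and 52.8 and 8.78 CPM in WT flowthrough 201 and 202. It was not called (log2 fold change -4.66 ± 1.49, edgeR adjusted p = 0.0531), and without WT astrocytes 201 the estimate was -9.29 with an adjusted p of 0.000106. Ighg2c lay at 0.161 to 13.6 CPM in astrocytes (median 0.474) and at 11.1, 1.61, 7.73 and 2.61 CPM in aKO 203, aKO 205, WT 201 and WT 202 flowthrough (-2.24 ± 0.98, adjusted p = 0.131). When animal was added as a block to a fit of the 4 brains with both fractions (8 libraries), Ighg2b (-7.60, adjusted p = 0.00250) and Ighg2c (-3.36, adjusted p = 0.00612) were called lower. Without the block on the same libraries Ighg2c was called too (-3.53, adjusted p = 0.0120) and Ighg2b was not. Without aKO astrocytes 208, which held 474 of the 618 astrocyte counts of Ighg2c, its adjusted p was 0.00173. Leaving out the library with most astrocyte counts, WT 201 for Ighg2b and aKO 208 for Ighg2c, lowers the astrocyte side by choice. Such adjusted p are no support for the direction. The same holds for Ighg2c in the 4 brains, which leave out aKO 208. Ighg3 reached 0.130 CPM in astrocytes and had 6.52, 0, 2.25 and 0.131 CPM in the same flowthrough libraries (-6.15 ± 1.21, adjusted p = 0.00237); without aKO flowthrough 203 the estimate was -1.07 with an adjusted p of 0.945. Ighg1, with 1 count in astrocytes and 237 in flowthrough of which 233 came from aKO 203, and Ighe, with 5 and 6 counts, did not pass the filter.

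Shares of isotypes were taken per length, from the authors' RPKM, which divides CPM by the length of the gene in kilobases. In flowthrough Igha made up 43.3% and 56.0% of heavy constant RPKM in aKO 203 and 205 and 29.7% and 31.2% in WT 201 and 202. Ighm made up 32.7% and 35.2% in aKO 203 and 205 and 48.5% and 65.3% in WT 201 and 202. The IgG genes together made up 23.96% and 8.79% in aKO 203 and 205 and 21.7% and 3.48% in WT 201 and 202, with Ighg2b the largest of them in each. Per length both aKO libraries had more Igha than Ighm and both WT libraries less, with 1.33 and 1.59 times the Ighm RPKM in aKO and 0.613 and 0.479 times in WT; no test was made of the shares. By count aKO 203 had less Igha (37.9%) than Ighm (41.0%).

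Igha, Ighg2b or Ighm was in front in astrocyte libraries. Per length Igha led in aKO 203 (68.5%), 205 (55.8%) and 208 (64.7%), Ighg2b led in WT 201 (72.1%), and Ighm led in aKO 221 (97.0%), aKO 222 (94.1%), WT 202 (92.9%) and WT 265 (95.4%). By count Ighm (51.8%) was ahead of Igha (46.9%) in aKO 205. These shares rest on 167 to 4347 heavy constant counts a library. Libraries 221 and 222, the 2 of 5 aKO astrocyte libraries with 0 and 2 Igha counts, were also the 2 with high Xist; the part of sex in this was not tested.

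**Figure D2:**
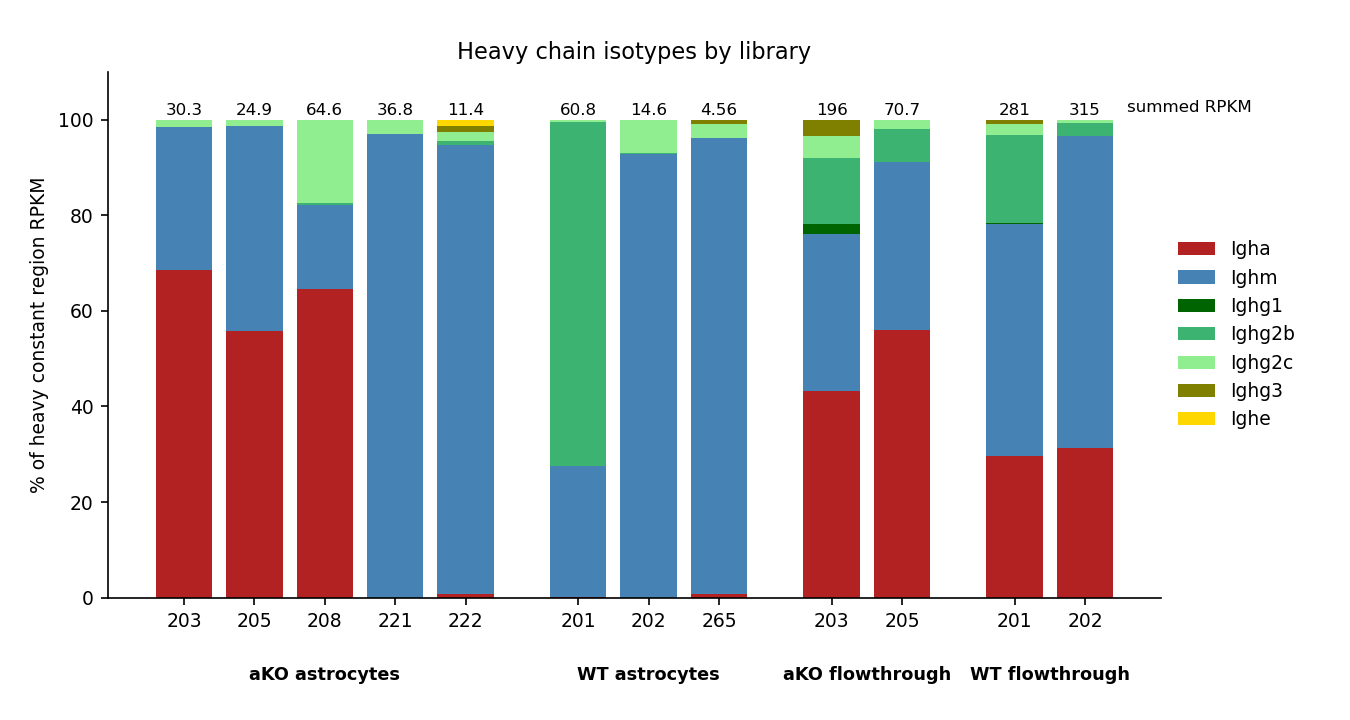
Stacked bars give the share of each heavy constant gene in the summed heavy constant RPKM of a library, which is printed above its bar. Igha is in all 4 flowthrough libraries at 29.7% to 56.0% and, per length, leads aKO 203, 205 and 208 among the 8 astrocyte libraries.

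Ighm counts in astrocytes were not matched by heavy V counts everywhere. In flowthrough there were 150 and 99.0 heavy V counts for each 1000 heavy constant counts in aKO 203 and 205 and 115 and 110 in WT 201 and 202. Astrocytes gave 168, 116, 192, 72.3 and 28.6 in aKO 203, 205, 208, 221 and 222 and 265, 0 and 240 in WT 201, 202 and 265. WT astrocytes 202 thus had 756 Ighm counts and no heavy V count. Whether counting used strand is not given, so reads of Ighm and of transcripts on the other strand cannot be told apart.

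Light chains were mostly kappa. Igkc, the only kappa constant gene and per length the highest member in each flowthrough library, had 5.55, 30.0, 53.7, 73.2 and 2.35 CPM in aKO astrocytes 203, 205, 208, 221 and 222 and 14.6, 1.07 and 47.0 CPM in WT astrocytes 201, 202 and 265. Flowthrough held 405 and 215 CPM in aKO 203 and 205 and 255 and 239 CPM in WT 201 and 202. All 8 astrocyte libraries lay below all 4 flowthrough libraries, with a log2 fold change of -3.65 ± 0.83 (edgeR adjusted p = 0.00754; 0.0527 without WT flowthrough 201). Per length Igkc stood at 2.35 to 9.42 times the summed heavy constant RPKM in flowthrough, and at 0.226 to 31.9 times in astrocytes, where WT 265 was highest with 1170 Igkc and 167 heavy constant counts.

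Lambda was judged by its V segments. They held 14.4% and 15.3% of light chain V RPKM in aKO flowthrough 203 and 205 and 33.7% and 6.02% in WT flowthrough 201 and 202. Among the 6 astrocyte libraries with at least 50 V counts the share was 0 in aKO 203 and WT 265, 0.283% in aKO 205, 2.54% in aKO 221, 28.3% in aKO 208 and 76.7% in WT 201. Iglv1 carried nearly all of it in WT 201, with 1691 of 1721 lambda V counts, whereas Iglv3 led in aKO 208 with 479 of 587. Iglc2, which lies beside other lambda constant genes of similar sequence, was at 0 to 21.4 CPM in astrocytes (median 0.206) and at 7.85 and 12.4 CPM in aKO flowthrough 203 and 205 and 9.03 and 9.07 CPM in WT flowthrough 201 and 202. It was not called (-3.62 ± 1.43, adjusted p = 0.107), and aKO astrocytes 208 held 746 of its 828 astrocyte counts. Without that library the adjusted p was 0.00217. On the 8 libraries of the 4 brains with both fractions Iglc2 was called both with the animal as a block (-7.58, adjusted p = 5.26e-05) and without (-7.53, adjusted p = 0.000153). All of these fits leave out aKO astrocytes 208 and so are no support for the direction.

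**Figure D3:**
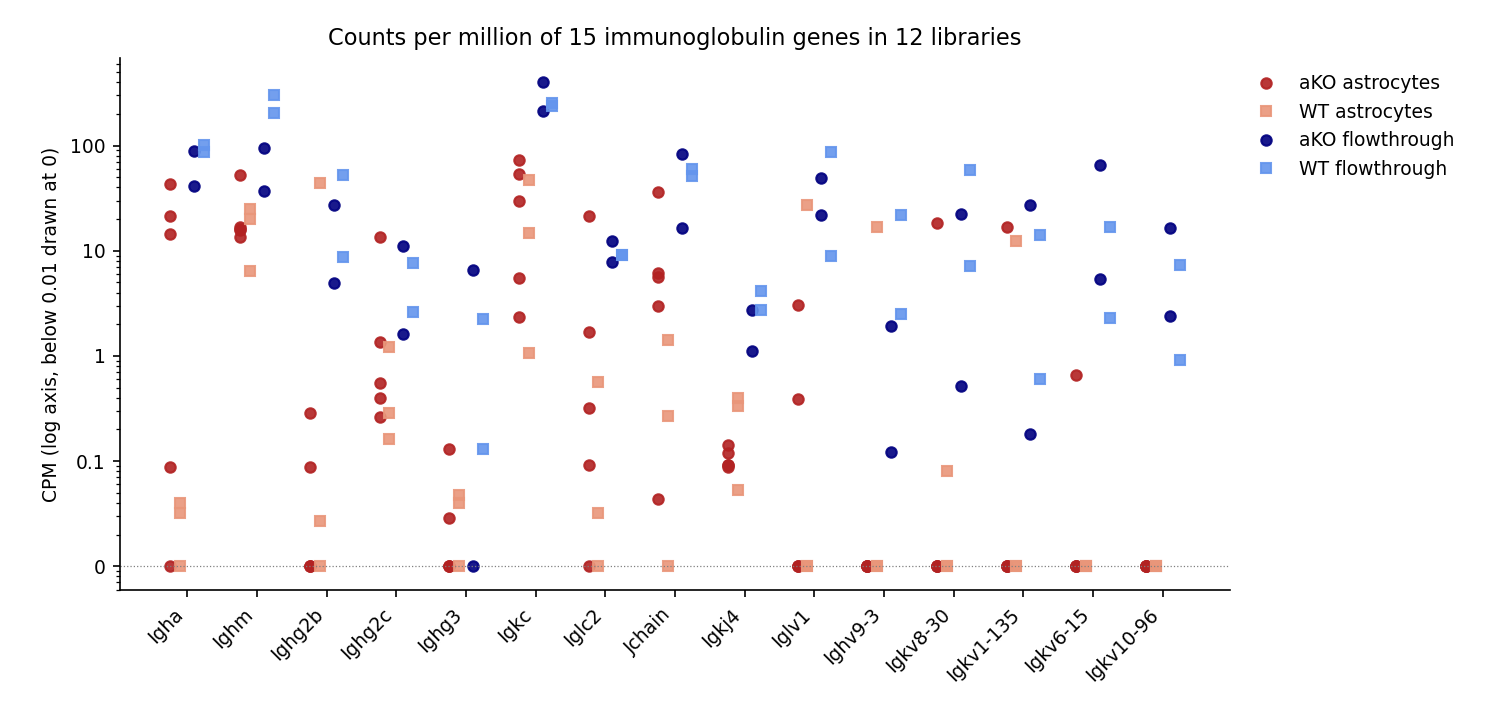
Points give CPM on a log axis for 15 members in each of the 12 libraries, with circles for aKO, squares for WT, warm colours for astrocytes and blue for flowthrough, and values of 0 on the dotted line. Igkc, Igkj4, Igkv6-15 and Igkv10-96 separate the fractions in all libraries, while 1 or a few astrocyte libraries reach flowthrough levels for Igha, Ighg2b, Iglv1, Ighv9-3, Igkv8-30 and Igkv1-135.

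Joining segments were lower in astrocytes as well. Of 9 joining segments 8 were tested and 6 were called lower. Igkj4 had the smallest adjusted p of all members, at 0.0533 to 0.402 CPM in astrocytes (median 0.106) and at 2.75 and 1.12 CPM in aKO flowthrough 203 and 205 and 4.11 and 2.72 CPM in WT flowthrough 201 and 202. The fractions did not overlap (-4.17 ± 0.52, edgeR adjusted p = 4.13e-05). Igkj3, printed above without the motif, was not called (-1.50 ± 0.84, adjusted p = 0.229).

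Variable segments made up most of the members. Of 57 heavy V segments 24 were tested and 13 called lower, of 76 kappa V segments 44 were tested and 35 called lower, and of 3 lambda V segments 1 was called lower (Iglv2, -4.64 ± 0.92, edgeR adjusted p = 0.00235). The 10 V segments with the largest summed flowthrough RPKM were Iglv1, Igkv6-15, Igkv8-30, Igkv1-110, Igkv6-23, Igkv1-135, Igkv10-96, Ighv9-3, Igkv9-124 and Igkv8-21. For 54 of the 87 tested members at least 1 of the 4 groups had no count, so the fitted fold change depends on the small prior count added and is no bound; ratios of pooled CPM are given for such members instead, with 95% intervals (exact Clopper-Pearson) or floors of 3 counts over the 8 astrocyte libraries that cover counting error only.

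Igkv6-15 had 65.4 and 5.39 CPM in aKO flowthrough 203 and 205 and 2.29 and 16.8 CPM in WT flowthrough 201 and 202, and in astrocytes a count in aKO 208 alone (23 counts, 0.661 CPM). Flowthrough was 309 times higher in pooled CPM (interval 205 to 487; edgeR adjusted p = 0.00203). Igkv10-96 had no count in the 8 astrocyte libraries and 0.915 to 16.3 CPM in flowthrough, so it was at least 700.1-fold lower in astrocytes (edgeR adjusted p = 0.000105). By the same floor Igkv9-124 was at least 486-fold lower (edgeR adjusted p = 0.00329; 0.0563 without aKO flowthrough 205) and Igkv8-24 at least 289.9-fold lower (adjusted p = 8.15e-05).

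Other kappa segments had single astrocyte counts. Igkv8-28 had 1 count against 405 in flowthrough, a ratio of flowthrough to astrocytes of 646 (interval 115 to 25591), and Igkv6-17 had 1 against 245, a ratio of 391 (interval 69.5 to 15506), with edgeR adjusted p of 5.46e-05 and 6.59e-05. Igkv6-23 had 10 counts, all in aKO astrocytes 221, against 1899 in flowthrough (ratio 303, interval 164 to 633; adjusted p = 7.93e-05). Igkv8-21 had 23 astrocyte counts in 3 libraries against 936, with a log2 fold change of -6.57 ± 1.02 (adjusted p = 0.000359).

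Several abundant V segments were high in 1 or 2 astrocyte libraries and were not called. Igkv8-30 was at 18.3 CPM in aKO astrocytes 205, at 0.0803 in WT 265 and at 0 in the other 6, against 22.5 and 0.515 CPM in aKO flowthrough 203 and 205 and 59.1 and 7.14 CPM in WT flowthrough 201 and 202 (-6.58 ± 2.09, edgeR adjusted p = 0.0536; 0.000503 without aKO astrocytes 205). Igkv1-135 was at 16.8 CPM in aKO astrocytes 221 and 12.4 CPM in WT astrocytes 265 and at 0 in the other 6, against 27.2 and 0.182 CPM in aKO flowthrough 203 and 205 and 0.607 and 14.0 CPM in WT flowthrough 201 and 202 (-1.58 ± 2.05, adjusted p = 0.633). Its sign turned without aKO flowthrough 203 (1.41) or WT flowthrough 202 (0.12). Igkv1-110 (edgeR adjusted p = 0.0591) had 709 of its 711 astrocyte counts in aKO 208, and without that library the adjusted p was 5.65e-07. Iglv1 (adjusted p = 0.0916) had 1691 of its 1810 astrocyte counts in WT 201 and Ighv9-3 (adjusted p = 0.169) all 1054, and without WT astrocytes 201 their adjusted p was 0.0103 and 0.00164. Leaving out the astrocyte library with most counts of a segment lowers the astrocyte side by choice. The adjusted p of such fits are no support for the direction. In the fit of the 4 brains with both fractions and animal as a block, Igkv1-135 (-11.17, adjusted p = 7.79e-05), Igkv1-110, Iglv1 (-8.76, adjusted p = 0.000738) and Ighv9-3 (-5.31, adjusted p = 0.0142) were called lower. These 8 libraries leave out aKO 208, aKO 221 and WT 265 astrocytes, which held all astrocyte counts of Igkv1-135 and nearly all of Igkv1-110. The calls of Igkv1-135 and Igkv1-110 there cannot bear on the direction, and the Igkv1-135 estimates depend on the small prior count. On the same 8 libraries without the block Igkv1-135 (-11.75, adjusted p = 0.0146), Igkv1-110 and Iglv1 (-7.95, adjusted p = 0.0292) were called too and Ighv9-3 was not, while Igkv8-30 was called without the block (adjusted p = 0.0448) and not with it.

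Among the heavy segments that led a flowthrough library, Ighv1-81 was called lower (edgeR adjusted p = 0.0393) with 98 astrocyte counts, all in aKO 208, against 409 in flowthrough (6.66 times higher in pooled CPM, interval 5.33 to 8.39). The call was lost in 9 of the 20 alternatives that tested it, with adjusted p up to 0.223. Those 20 include the higher minimum summed count, which reuses the main fit. Ighv5-9-1 had 502 counts in flowthrough, 404 of them in WT 202, and none in astrocytes, which puts it at least 267-fold lower in astrocytes (adjusted p = 0.0659; in the 4 brains 0.00119 with animal blocked and 0.0460 unblocked). Ighv14-4 had 244 and 13 counts in aKO flowthrough 203 and 205 and none elsewhere. Its pooled CPM was at least 137-fold lower in astrocytes by the floor and 110-fold by the lower end of that interval. Both values rest on aKO brains, mostly 203, since WT brains held no count in either fraction. Ighv14-4 was not called (edgeR adjusted p = 0.99996).

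Libraries differed in which V segments they held. Flowthrough libraries held a count for 116 and 86 of the 136 V members in aKO 203 and 205 and for 101 and 111 in WT 201 and 202. Astrocytes held a count for 9, 14, 32, 18 and 8 in aKO 203, 205, 208, 221 and 222 and for 29, 2 and 28 in WT 201, 202 and 265. These numbers rest on 5289 to 21084 V counts in flowthrough and on 4 to 3312 in astrocytes. Brought to 100 V counts by the hypergeometric formula, the expected number was 6.71 to 11.8 segments in the 6 astrocyte libraries with enough counts and 23.5 to 37.3 in flowthrough, so the ranges did not overlap at equal depth.

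The effective number of V segments (the inverse Simpson index of their RPKM shares, which equals the number of segments if all were equally frequent) was 2.11, 1.84, 5.78 and 2.24 in aKO astrocytes 203, 205, 208 and 221 and 2.75 and 2.65 in WT astrocytes 201 and 265. It was 14.5 and 20.9 in aKO flowthrough 203 and 205 and 7.59 and 29.0 in WT flowthrough 201 and 202. All 6 astrocyte values lay below all 4 flowthrough values. WT flowthrough 201 was the least even flowthrough library, with Iglv1 at 28.3% and Igkv8-30 at 18.4% of V RPKM.

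**Figure D4:**
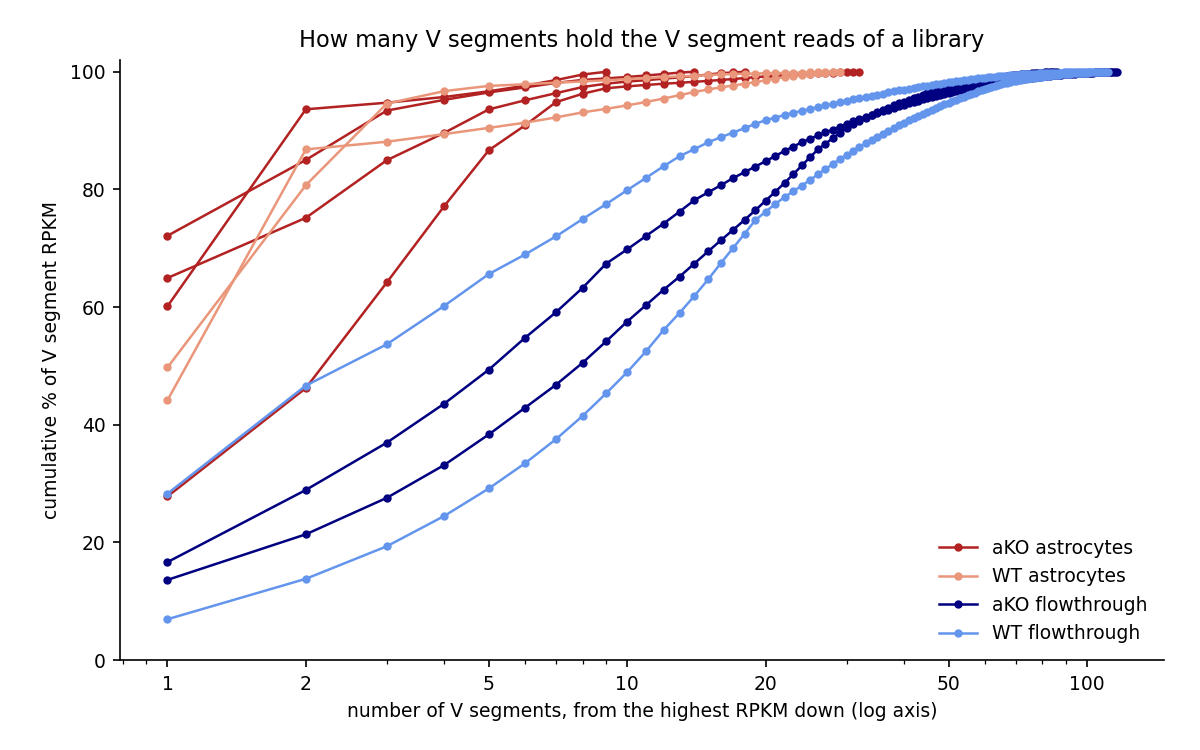
Each line gives, for a library with at least 50 V counts, the cumulative share of V segment RPKM held by its highest segments, on a log axis of their number. The 6 astrocyte lines start at 27.8% to 72.1% for the first segment and the 4 flowthrough lines at 6.93% to 28.3%.

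Single segments held most of the heavy and of the kappa V reads in several astrocyte libraries. Ighv4-1 made up 96.2% of heavy V RPKM and Igkv1-88 89.4% of kappa V RPKM in aKO 203, and in aKO 205 Ighv3-6 made up 86.5% and Igkv8-30 85.0%. In aKO 221 Ighv1-80 (62.2%) and Ighv1-53 (29.6%) shared the heavy reads and Igkv1-135 made up 79.1% of kappa. aKO 208 was the most mixed, with Ighv10-1 at 65.9% and Ighv1-81 at 19.96% of heavy, Igkv1-110 at 48.3% and Igkv14-111 at 31.2% of kappa, and Iglv3 at 81.0% of lambda. In WT astrocytes 201 Ighv9-3 made up 91.1% of heavy, Igkv4-62 90.3% of kappa and Iglv1 98.2% of lambda, and in WT 265 Igkv1-135 (46.8%) and Igkv3-4 (45.2%) shared the kappa reads over 40 heavy V counts. aKO 222 and WT 202 had 32 and 4 V counts and are given no shares.

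The leading segments of single astrocyte libraries were named after their values were seen. Of the 136 V segments 24 reached 10 counts in exactly 1 astrocyte library, 2 did so in 2 and 1 (Iglv1) in more. Flowthrough was less uneven but far from uniform: 58 segments had a count in all 4 libraries and 10 in 1 only, and for 112 of 136 a single library held over 50% of the segment's flowthrough CPM (median share of that library 72.1%). aKO 203 led for 48 segments, WT 202 for 42, WT 201 for 26 and aKO 205 for 20.

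**Figure D5:**
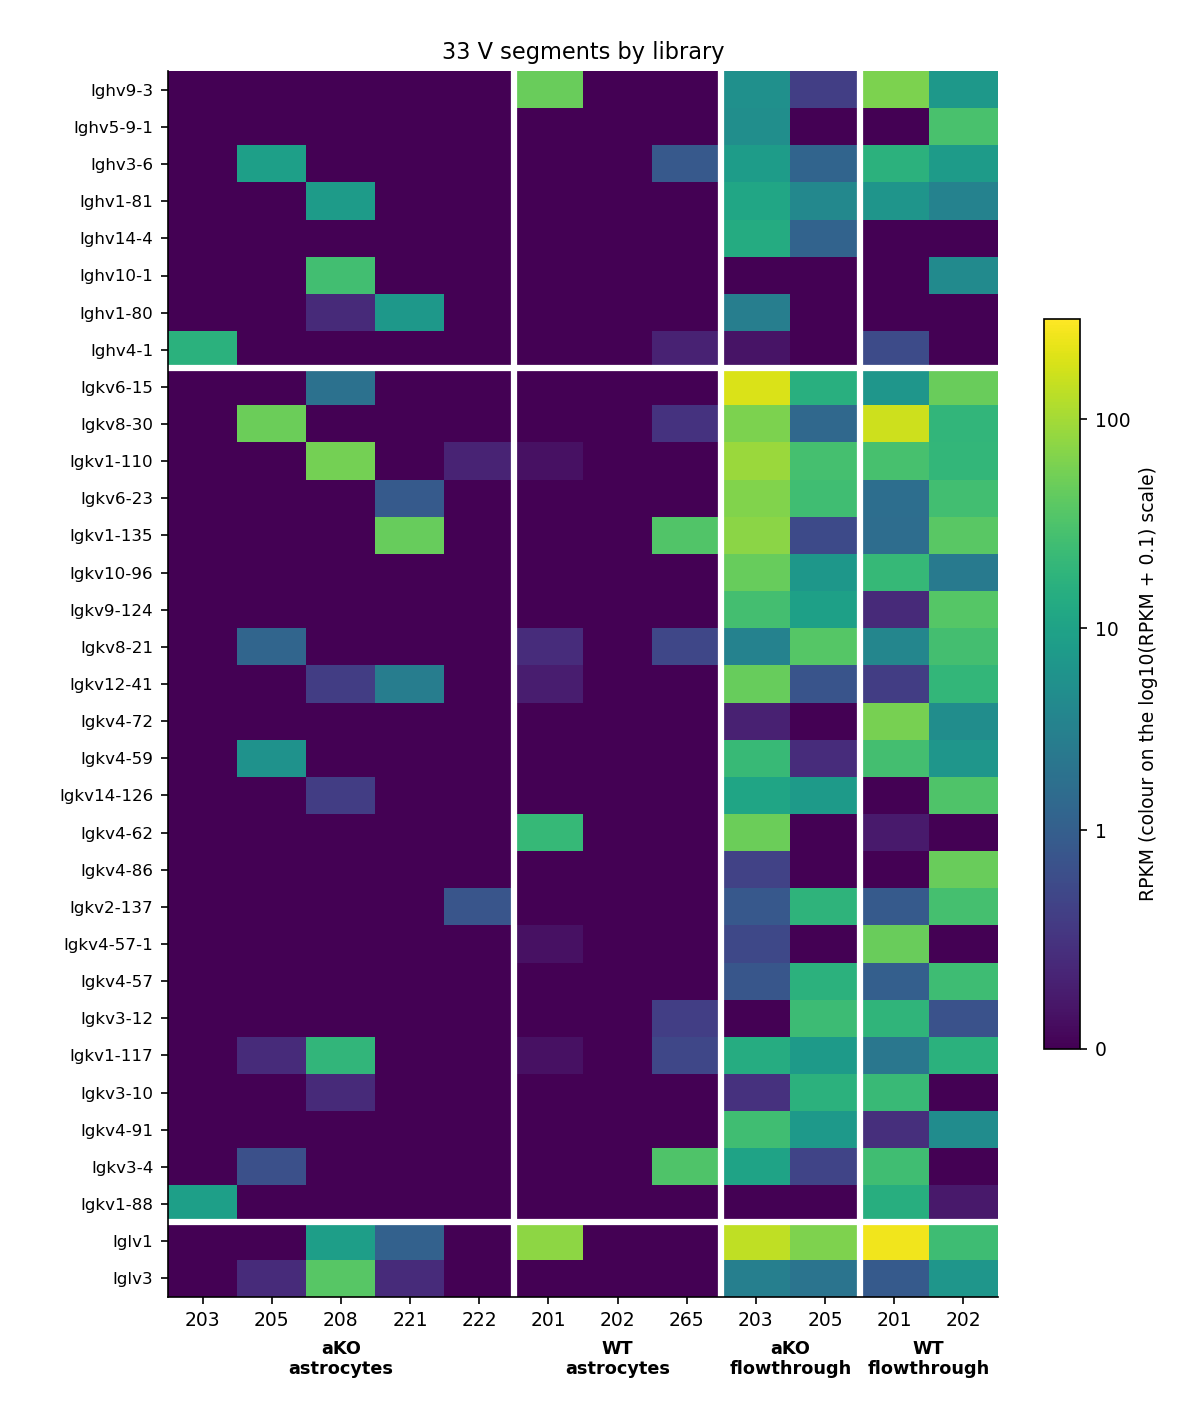
Colour gives the RPKM, on a log scale, of 33 V segments (the 24 with the largest flowthrough RPKM and the leading segments of each library) in the 12 libraries, heavy above kappa above lambda. Astrocyte columns are at 0 for most segments, and the segments that stand out in them differ from library to library; for example, Ighv4-1 stands out in aKO 203 and Ighv9-3 in WT 201.

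The overlap of V usage was measured as the sum over segments of the smaller of 2 libraries' RPKM shares. It was 20.5% to 44.5% in the 6 pairs of flowthrough libraries (median 37.9%) and 0 to 44.3% in the 15 pairs of astrocyte libraries (median 1.21%), where the highest pair, aKO 221 with WT 265, shared Igkv1-135. Astrocytes and flowthrough of different animals shared 0.612% to 25.3% (21 pairs, median 10.6%). The 2 fractions of a brain shared 0.634% in aKO 203, 3.81% in aKO 205 and 37.3% in WT 201.

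The brains that gave both fractions show the V segments directly. In WT 201 Ighv9-3 had 16.8 CPM in astrocytes and 21.7 CPM in flowthrough, Iglv1 27.0 and 87.5 CPM, and Ighg2b 44.2 and 52.8 CPM, so these 3 were high in both. Of these, Iglv1 made up 73.8% to 96.7% of lambda V reads per kilobase in every flowthrough library, and Ighg2b was the largest IgG gene in each. The leading kappa segment of WT astrocytes 201, Igkv4-62, was estimated lower in WT than in aKO flowthrough (aKO over WT 9.04 ± 4.19 on the log2 scale, SE, edgeR adjusted p = 0.804). In aKO 203 Ighv4-1 had 5.73 CPM (125 counts) in astrocytes and 0.0186 CPM (1 count) in flowthrough, and Igkv1-88 had 72 counts in astrocytes and none in flowthrough. In aKO 205 Igkv8-30 had 18.3 CPM in astrocytes and 0.515 CPM in flowthrough, and Ighv3-6 3.06 and 0.424 CPM. Of 136 V segments 6 were higher in astrocytes than in flowthrough of aKO 203, 7 of aKO 205, 9 of WT 201 and 1 of WT 202, among 9, 14, 29 and 2 that had an astrocyte count. Of the constant and joining genes and Jchain, 1 was higher in astrocytes than in flowthrough of aKO 205 and none in the other 3 brains.

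The genotype comparison in flowthrough asked whether deletion of Bmal1 in astrocytes went with a change in these genes among the other brain cells. None of the 87 tested members was called (edgeR adjusted p below 0.05), as was no gene of 20637 (0%); 11 members and 817 genes had an unadjusted p below 0.05, and 7 of the 11 members were higher in aKO. With no count filter 4 members were called higher and 8 lower of 155, against 0.0274% and 0.11% of 32850 genes. Ighm had 95.4 and 37.0 CPM in aKO flowthrough 203 and 205 and 203 and 306 CPM in WT flowthrough 201 and 202, without overlap, and a log2 fold change of -1.68 ± 0.73 (edgeR adjusted p = 0.804, unadjusted 0.0355). In 41 of 155 members (26.5%) the 2 aKO and the 2 WT libraries did not overlap, against 30.5% of the 25901 genes with a summed count of 10 or more.

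Of the other constant genes in flowthrough, Igkc differed by 0.58 ± 1.33, Igha by -0.29 ± 1.87, Jchain by 0.07 ± 1.71, Ighg2b by -0.78 ± 2.15, Ighg2c by 0.47 ± 1.60, Ighg3 by 1.57 ± 1.61 and Iglc2 by 0.47 ± 2.17 on the log2 scale (SE; edgeR adjusted p 0.819 to 0.997). The standard errors exceed most of these estimates, so differences of this size were not detectable with 2 libraries a genotype. The smallest unadjusted p of a member was that of Igkv4-72, singled out after its values were seen, with 2 and 0 counts in aKO 203 and 205 and 903 and 67 in WT 201 and 202. Ighv14-4 followed (unadjusted p = 0.00115, edgeR adjusted p = 0.804), with 244 and 13 counts in aKO 203 and 205 and none in WT 201 and 202.

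In astrocytes 8 members passed the filter of the fit on the 8 astrocyte libraries, and none was called between aKO and WT (edgeR; 0.0264% of 18950 genes were called, 0.0211% higher and 0.00528% lower); 2 members and 299 genes had an unadjusted p below 0.05. Igha had a log2 fold change of 9.11 ± 2.92 (unadjusted p = 0.0154, adjusted p = 0.9997) and Jchain of 4.14 ± 1.79 (unadjusted p = 0.0495, adjusted p = 0.9997). Their values above show that 3 of 5 aKO libraries and 0 of 3 WT libraries had more than 2 Igha counts, and the groups overlapped through aKO 221 and 222. DESeq2 called Igha higher (adjusted p = 0.0492) and was the only one of 17 alternatives to call a member. Those 17 include the higher minimum summed count, which reuses the main fit and could add no call. Iglc2 (4.63 ± 2.62), Ighg2c (2.41 ± 1.37), Igkc (0.39 ± 1.29) and Ighm (0.34 ± 0.48) were not called either (adjusted p = 0.9997 each).

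The genotype effect in astrocytes was also set against that in flowthrough in 1 fit. None of the 87 members was called for this difference (0% of 20637 genes, 11 members and 499 genes with an unadjusted p below 0.05). The largest estimate among the constant genes was that of Igha, 9.39 ± 3.17 (edgeR adjusted p = 0.956). On the 8 libraries of the 4 brains with both fractions it was called, with an estimate of 9.81 and an adjusted p of 0.00834 with the animal as a block and 0.0157 without. Those libraries leave out aKO astrocytes 221 and 222, which had almost no Igha, besides aKO 208 and WT 265. The call thus depends on which animals are kept. With no count filter 12 of 155 members were called higher, Igha among them (edgeR adjusted p = 5.60e-17), and 5 lower, against 0.0913% and 0.0304% of 32850 genes. The unfiltered Igha estimate was 9.48, close to the 9.39 with the filter. Its call there thus comes from a smaller estimated error and is no support for a difference. In the 4 brains with both fractions Igha had 21.5 and 14.3 CPM in aKO astrocytes 203 and 205 and 0.0319 and 0 CPM in WT astrocytes 201 and 202. The other constant genes ranged from -6.56 ± 3.12 for Ighg2b and -1.65 ± 2.57 for Ighg3 over -0.11 ± 1.64 for Igkc, 1.94 ± 2.04 for Ighg2c, 2.00 ± 0.90 for Ighm and 4.04 ± 2.28 for Jchain to 4.26 ± 3.01 for Iglc2 (adjusted p 0.956 to 0.9999).

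Of 20 plasma cell genes 10 were lower and 0 higher in astrocytes (median log2 fold change -1.30, against 0.07 over all genes tested). Tnfrsf17, the receptor BCMA of plasma cells, had 0.596 to 3.61 CPM in astrocytes and 18.3 to 54.8 CPM in flowthrough (-4.85 ± 0.52), and Edem1 (-2.32 ± 0.41), Prdm1, the plasma cell regulator Blimp-1 (-2.93 ± 0.52), and Slamf7 (-3.09 ± 0.60) followed (edgeR adjusted p at most 0.00188). The summed plasma cell list differed less, at 303 to 630 CPM in astrocytes and 705 to 909 CPM in flowthrough. Within the list 3 of 20 genes had an estimate above 0 and 17 below. Named after their values were seen, Sdc1 (mean 1.84 and 1.80 CPM in astrocytes and flowthrough) and Txndc5 (24.7 and 22.7) hardly differed. Means were higher in astrocytes for Ell2 (6.12 and 2.88) and Eaf2 (2.46 and 1.12). Tnfrsf17 was highest in aKO 205 (54.8 CPM), the flowthrough library with the lowest immunoglobulin sum.

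Mature B cell genes were lower in 14 of 19 tested cases and higher in 0 (median -2.82), with Cd37 (-4.55 ± 0.44), Blnk (-3.85 ± 0.39), Fcrl1 (-5.11 ± 0.53) and the antigen receptor subunit Cd79b (-5.05 ± 0.55) first. Their sum was 35.9 to 64.6 CPM in astrocytes and 419 and 147 CPM in aKO flowthrough 203 and 205 and 682 and 426 CPM in WT flowthrough 201 and 202. Of 13 precursor and recombination genes 6 were lower, with Vpreb3 (-2.46 ± 0.35), Il7r (-4.11 ± 0.71), Igll1 (-2.98 ± 0.55), a part of the surrogate light chain, and Sox4 (-2.32 ± 0.48) first. Of 9 genes of class switching and hypermutation Rif1 was higher (1.08 ± 0.29) and 0 lower.

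Of 11 genes of IgA transport and plasma cell homing 2 were lower, Tnfsf13b, the survival factor BAFF (-3.56 ± 0.49), and Itgb7 (-2.14 ± 0.55). Of 9 Fc receptor genes 5 were lower, led by Fcgr1 (-4.04 ± 0.40). Of the markers of other cells, 11 of 14 T and NK cell genes, 15 of 15 neutrophil and granulocyte precursor genes and 8 of 11 erythroid genes were lower in astrocytes, the last with 1 higher. Of 10 choroid plexus and meningeal genes 2 were higher, the collagen gene Col1a1 (1.38 ± 0.38) and Lum (1.56 ± 0.49), and 0 lower. The neutrophil list summed to 111 to 595 CPM in astrocytes and 3005 to 6457 CPM in flowthrough and the erythroid list to 238 to 1850 CPM and 3311 to 13807 CPM. The part of blood, marrow or meningeal cells in the immunoglobulin difference was not tested. Between aKO and WT no gene of the 12 lists was called in flowthrough or in astrocytes.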

How the data were processed

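RNA was taken with Trizol and a PureLink kit and made into libraries with the Takara Clontech SMARTer v1 kit, per the labels' protocols. The submitters' processing notes name GRCm38, featureCounts 1.4.6-p5, Subread, STAR 2.5.1a and bcl2fastq; the annotation release, strand setting and handling of multiply mapped reads are not given in the sources used here. The authors deposited a raw count, CPM (counts per 1000000) and RPKM (also per kilobase) for each of 41388 genes, 40254 of them named. Counts were tested with edgeR 4.0.16 (R 4.3.3; TMM, filterByExpr with minimum count 10 and total 15, robust quasi-likelihood fit, Benjamini-Hochberg adjustment over all genes tested, threshold 0.05), after a check on simulated counts. CPM was computed from the counts, and it and the deposited RPKM were used only for description. The alternatives were DESeq2 1.42.0, limma 3.58.1 voom, other scalings and filters, V families, the animal as a block, and leaving out libraries. The same-numbered libraries come from 1 brain; over 20637 genes, their departures from group means had a correlation of 0.166 (203), 0.404 (205), 0.0823 (201) and 0.424 (202). Libraries held 21816637 to 62655238 counts, and intervals and floors cover counting error only. Replicates of a group carry different animal numbers in the labels. Named genes were the constant genes and Jchain, the 10 V segments with the largest summed flowthrough RPKM, the leading V segments of each flowthrough library, the 5 called members with the smallest p in each comparison and direction, the members at the edge of the count threshold and, per list, up to 4 genes with the smallest p; exceptions are named in the text. Members and lists were chosen with earlier results of these data known. V shares needed at least 50 counts of the chain.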

Additional observations from a re-analysis of the deposited data

Results flagged for a closer look

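In the 5 aKO astrocyte libraries a single library stood far above the other 4 for 17 single genes and 2 summed values of 38 values tested. The measure was the gap to the next library over the range of the group. Its cut-off would mark about 1 in 20 groups of normally distributed values. A gene counted in a single library passes it whatever its level, so the number marked cannot be set against that rate. Library 208 was the high one for Jchain (36.0 CPM), Iglc2 (21.4), Igkv1-110 (20.4), Ighg2c (13.6), Iglv1 (3.04), Ighv1-81 (2.81), Igkv6-15 (0.661), Ighv11-1 (0.0574) and Igkv6-17 (0.0287 CPM, 1 count). It was also high for the summed lambda V segments (16.9 CPM) and for the IgG share of heavy constant RPKM (17.9%). Library 221 was the high one for Ighm (53.0 CPM), Igkv1-135 (16.8) and Igkv6-23 (0.300), library 205 for Igkv8-30 (18.3 CPM), Igkv8-21 (0.459) and Igkv8-28 (0.0306, 1 count), and library 222 for Ighe (0.217 CPM, 5 counts) and Ighg3 (0.130 CPM).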

How the results depend on the processing

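The count of members lower in astrocytes was 60 of 87 and lay between 51 and 66 when 1 library was left out, at 74 with the animal as a replicate block (73 without the block on the same 8 libraries), 66 with voom, 62 with DESeq2 size factors, 46 with the DESeq2 test, 52 with library 202 as aKO and 64 without libraries 222 and 265 together, an alternative chosen after seeing the data; it was 113 with no count filter and 30 of 43 with V segments summed into families, where fewer features were tested. For most of these fits the members tested and the share of all genes called are not given here. Their counts thus cannot be set against 60 of 87. The fits on 8 libraries also leave out the astrocyte libraries of animals without flowthrough. Their counts of 74 and 73 are no support for the direction. No genotype call appeared when 1 library was left out (0 in each). With no count filter 12 members were higher and 5 lower for the difference of the genotype effects, against 0.0913% and 0.0304% of 32850 genes. In the same fit 4 were higher and 8 lower in aKO than in WT flowthrough, against 0.0274% and 0.11%. Calls of the unfiltered fit are not taken as support, since for members such as Igha and Igkv8-30 it lowered adjusted p far more than it moved estimates. For the difference 1 member (Igha) was higher with the replicate block and 1 without it on the same libraries. Both fits leave out aKO astrocytes 221 and 222, which had almost no Igha. With DESeq2 1 member (Igha) was higher in aKO than in WT astrocytes. The cause was not tested. In flowthrough the mean Igha share lay at 34.8% to 43.5%, Ighm at 38.8% to 49.7%, IgG at 11.3% to 18.2%, lambda at 11.9% to 21.1% and the effective number of V segments at 14.3 to 21.4 with 1 library left out; the mean number of V segments with a count was 103.5 (99.3 to 109), 63.8 at a minimum of 10 counts and 30.0 for families. Signs turned only for genotype estimates that were not called and for Igkv1-135 between fractions (-6.75 to 1.41). With 1 library left out the aKO against WT flowthrough estimate ranged from -0.86 to 0.023 for Igha, -2.37 to 1.11 for Ighg2b, -1.40 to 1.52 for Ighg2c, -8.57 to 4.82 for Ighg3, -0.093 to 0.79 for Iglc2 and -1.43 to 0.70 for Jchain; in astrocytes it ranged from -0.029 to 3.83 for Ighg2c, -0.19 to 0.59 for Ighm and -0.16 to 2.12 for Igkc. The difference ranged from -8.49 to 2.70 for Ighg2b, -0.44 to 3.84 for Ighg2c, -4.89 to 8.56 for Ighg3 and -0.67 to 1.55 for Igkc. For Ighg2c the difference was -1.41 with no block and -0.83 with the replicate block, and for Igkc 0.43 and 0.90, with 0.81 by voom, 0.011 with no filter and 1.84 without 222 and 265. Voom gave -0.32 for Ighg3 and -0.45 for Jchain in flowthrough, no filter gave -0.0090 for Jchain, and library 202 as aKO gave -0.41 for Igkc in astrocytes. Of all estimates of named members under the alternatives, 806 kept direction and side of the threshold, 55 passed it newly, 20 no longer passed it and 36 changed sign. The 806 include those of the higher minimum summed count, which reuses the main fit and keeps every estimate by construction. Among the named members, on the same 8 libraries, the block changed the calls between fractions of Ighg2b and Ighv9-3, called with it alone, and of Igkv8-30, called without it alone.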
